A study of Solanum lycopersicum with 9 samples.

Results

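The genes described here encode the subunits of DNA-directed RNA polymerases and the sigma factors that work with the plastid enzyme, in tomato (Solanum lycopersicum) seeds. They were chosen by their annotation alone, as every gene whose description held the words "DNA-directed RNA polymerase" or "RNA polymerase sigma", and they number 129 of the 40229 genes in the deposited table. RNA had been sequenced from seeds that had taken up water for 6 h, the step called imbibition that starts germination. The 9 libraries were 3 of wild type (WT), 3 of an SlLBD40 knockout and 3 of an SlWRKY37 knockout, all from seeds, all imbibed and all taken at the same time. Both genes encode plant transcription factors, SlLBD40 of the LOB domain class and SlWRKY37 of the WRKY class. Whether replicate libraries are from different plants or harvests, and how many edited lines stand behind a knockout, is not stated in the labels, so p-values measure the spread between these libraries only.

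Plant cells transcribe their DNA with several RNA polymerases. In the nucleus RNA polymerase I makes ribosomal RNA precursors, RNA polymerase II makes messenger RNA, RNA polymerase III makes transfer RNA and other short RNAs, and the plant-specific RNA polymerases IV and V work in the silencing of DNA by small RNAs. Plastids hold a bacterial-type enzyme whose core subunits alpha, beta, beta' and beta'' are encoded in the plastid genome and whose promoter choice depends on nucleus-encoded sigma factors, together with a single-subunit enzyme of the phage type that the nucleus encodes. Plastids of a seed are largely without chlorophyll, and the plastid enzyme is best known for its work in greening leaves.

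Expression values are taken as FPKM, which corrects fragment numbers for transcript length and library size, and are given for replicates 1, 2 and 3 in that order or as mean ± SD (n = 3). Read counts are not part of the table, and depth is therefore unknown. Libraries summed to 856291 to 918103, with 23206 to 24507 genes above 0. Tissue was checked on 181 genes described as oleosin, vicilin, legumin, 2S albumin or late embryogenesis abundant protein, of which 52 were at 0 in all libraries. This text search also took broad families. These were the lipid-transfer protein and 2S albumin superfamily and the late embryogenesis abundant hydroxyproline-rich glycoproteins, so the list is not limited to seed storage markers. Their summed value was 62116 to 77962 in WT, 22562 to 26395 in the LBD40 knockout and, in the WRKY37 knockout, 25816 to 41338, so the sum was large in all groups and lower in both knockouts. Single genes of the list went both ways: of 90 tested, 21 were called higher (23.3%, against 18.0% of all genes tested) and 35 lower (38.9%, against 19.2%) in the LBD40 knockout, with a median log2 change of -0.10, and 9 higher (10%, against 4.82%) and 32 lower (35.6%, against 4.56%) in the WRKY37 knockout, with a median of -0.36. Of the 90, 4 reached the mean needed for testing only through the libraries of 1 group. Among these 4 were 3 of the 21 called higher in the LBD40 knockout, and those 3 calls add no support. Replicate 2 of the WRKY37 knockout stood apart for the polymerase genes: it held the highest of the 9 values in 28 of 55 tested members (50.9%), against 28.7% of all genes tested, and gave members 0.278% of its summed value where the other 8 libraries gave 0.188 to 0.237%.

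Members were not measured alike. Of the 129 genes, 59 were at 0 in every library, 15 were above 0 with a mean under 1, and 55 averaged 1 or more across the 9 libraries and were tested. For 2 of the 55, sigA on chromosome 6 and subunit 7 of RNA polymerase V on chromosome 9, the 6 libraries outside the LBD40 knockout averaged under 1, so they were tested only through their LBD40 values. The genes at 0 were mostly those named after the bacterial-type enzyme. Subunit names alpha, beta, beta' or beta'' were carried by 75 genes, of which 55 were at 0, 10 had a mean under 1 and 10 were tested. Among the other 54 members, 4 were at 0, 5 had a mean under 1 and 45 were tested.

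**Figure D1:**
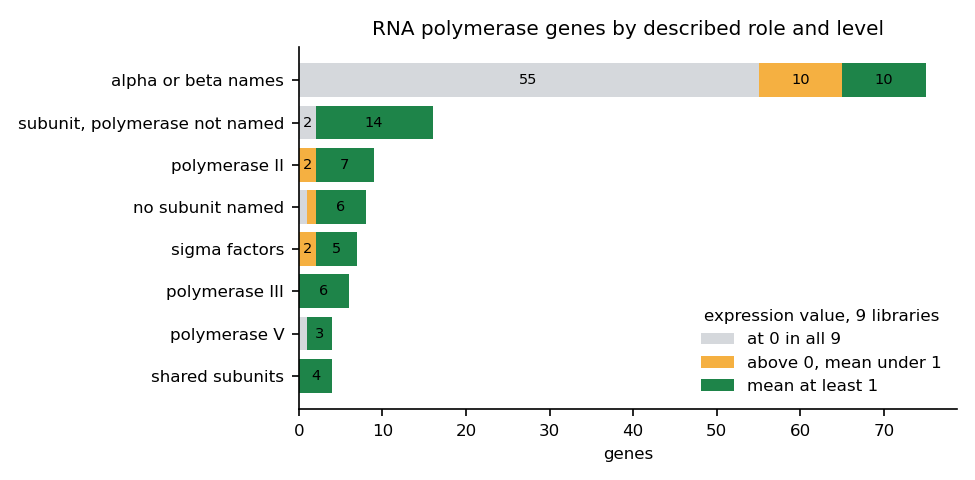
Number of RNA polymerase genes (x axis) by the role in their description (y axis), split into genes at 0 in all 9 libraries (grey), above 0 with a mean under 1 (orange) and with a mean of at least 1 (green). Segments of 1 gene carry no number. Of the 75 genes with alpha or beta names 55 were at 0, while all 6 genes of polymerase III and all 4 of the shared subunits had a mean of at least 1.

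The annotation itself sets the alpha and beta names apart. By subunit there were 8 genes named alpha, 30 named beta, 13 named beta' and 24 named beta''. No beta' gene reached a mean of 1, and the highest of the 13 had a mean of 0.0411. In the row order of the table, 41 of the 75 (54.7%) stood within 5 rows of another gene whose description was searched for as typical of the plastid genome. This compares with 2 of the 54 other members (3.70%) and 5.82% of all 34075 coding rows. That search also took nuclear genes for chloroplast ribosomal proteins. The quality code of the description marked incomplete overlap with the matched protein in 51 of the 55 alpha or beta genes at 0, in 8 of the 10 low ones and in 2 of the 10 tested ones.

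The plastid genome itself carries genes for all 4 core subunits, rpoA, rpoB, rpoC1 and rpoC2, in the RefSeq gene table for tomato. Gene IDs in the deposited table name chromosomes 1 to 12 and unplaced sequence only. Reads from plastid RNA that were counted on a nuclear copy and reads from that copy itself cannot be told apart. A beta name is also given in databases to the second-largest subunit of nuclear polymerases, which is related to the bacterial one, and the wording of the description does not say which protein is meant. For 5 of the 10 tested alpha or beta genes, all 5 on numbered chromosomes, the matched protein was from Arabidopsis. The match named a nuclear locus for the beta genes on chromosome 3 (copies 2 and 3) and chromosome 8 (copy 4) and the alpha gene on chromosome 4 (copy 2).

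The tested members spanned 1.04 to 269.8 in mean value over the 9 libraries, with a median of 19.6, against 12.01 for all 18346 genes tested, and 42 of the 55 were at 10 or more. Shared subunits stood highest. Subunit 6A of polymerases II, IV and V on chromosome 9, a small subunit of the enzyme core, had a mean of 270, and the subunit of polymerases I, II and III on chromosome 6 a mean of 162. The leading genes of the other classes were the subunit f gene on chromosome 10 at 118, the rpb7-like gene of polymerase II on chromosome 3 at 73.1, the bare "DNA-directed RNA polymerase" on chromosome 12 at 49.7, the beta gene on chromosome 3 (copy 3) at 46.2 and RPC6 of polymerase III on chromosome 8 at 43.7. The leading genes of polymerase V (subunit 5A on chromosome 4) and of the sigma factors (chromosome 1) were lower, at 13.6 and 13.2.

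The first comparison asked which polymerase genes differ in seeds without SlLBD40. Most that differed were lower than in WT: subunits of RNA polymerases II and III, shared subunits and subunits of no named enzyme were among the 15 genes that fell, while 3 sigma factors and 1 beta'' gene rose. By limma with Benjamini-Hochberg adjustment over all genes, 19 of the 55 members were called (adjusted p below 0.05), a share of 34.5% beside 37.2% of all genes tested. By direction, 4 members were higher (7.27%, against 18.0% of all genes) and 15 lower (27.3%, against 19.2%). Groups did not overlap with all LBD40 values below WT in 28 members (50.9%, against 29.5% of all genes) and with all above in 7 (12.7%, against 27.3%). The median log2 change of the members was -0.22, against -0.02 over all genes, and 41 of the 55 were below 0. The count of calls was 11 without LBD40 replicate 1, 11 without LBD40 replicate 2 and 12 without WT replicate 1. Over all genes, calls in the same fits fell from 3296 higher and 3530 lower to 2426 and 2107, 2192 and 2361, and 2284 and 2487. In whole seeds a smaller share of cells of a type and less RNA per cell cannot be told apart.

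**Figure D2:**
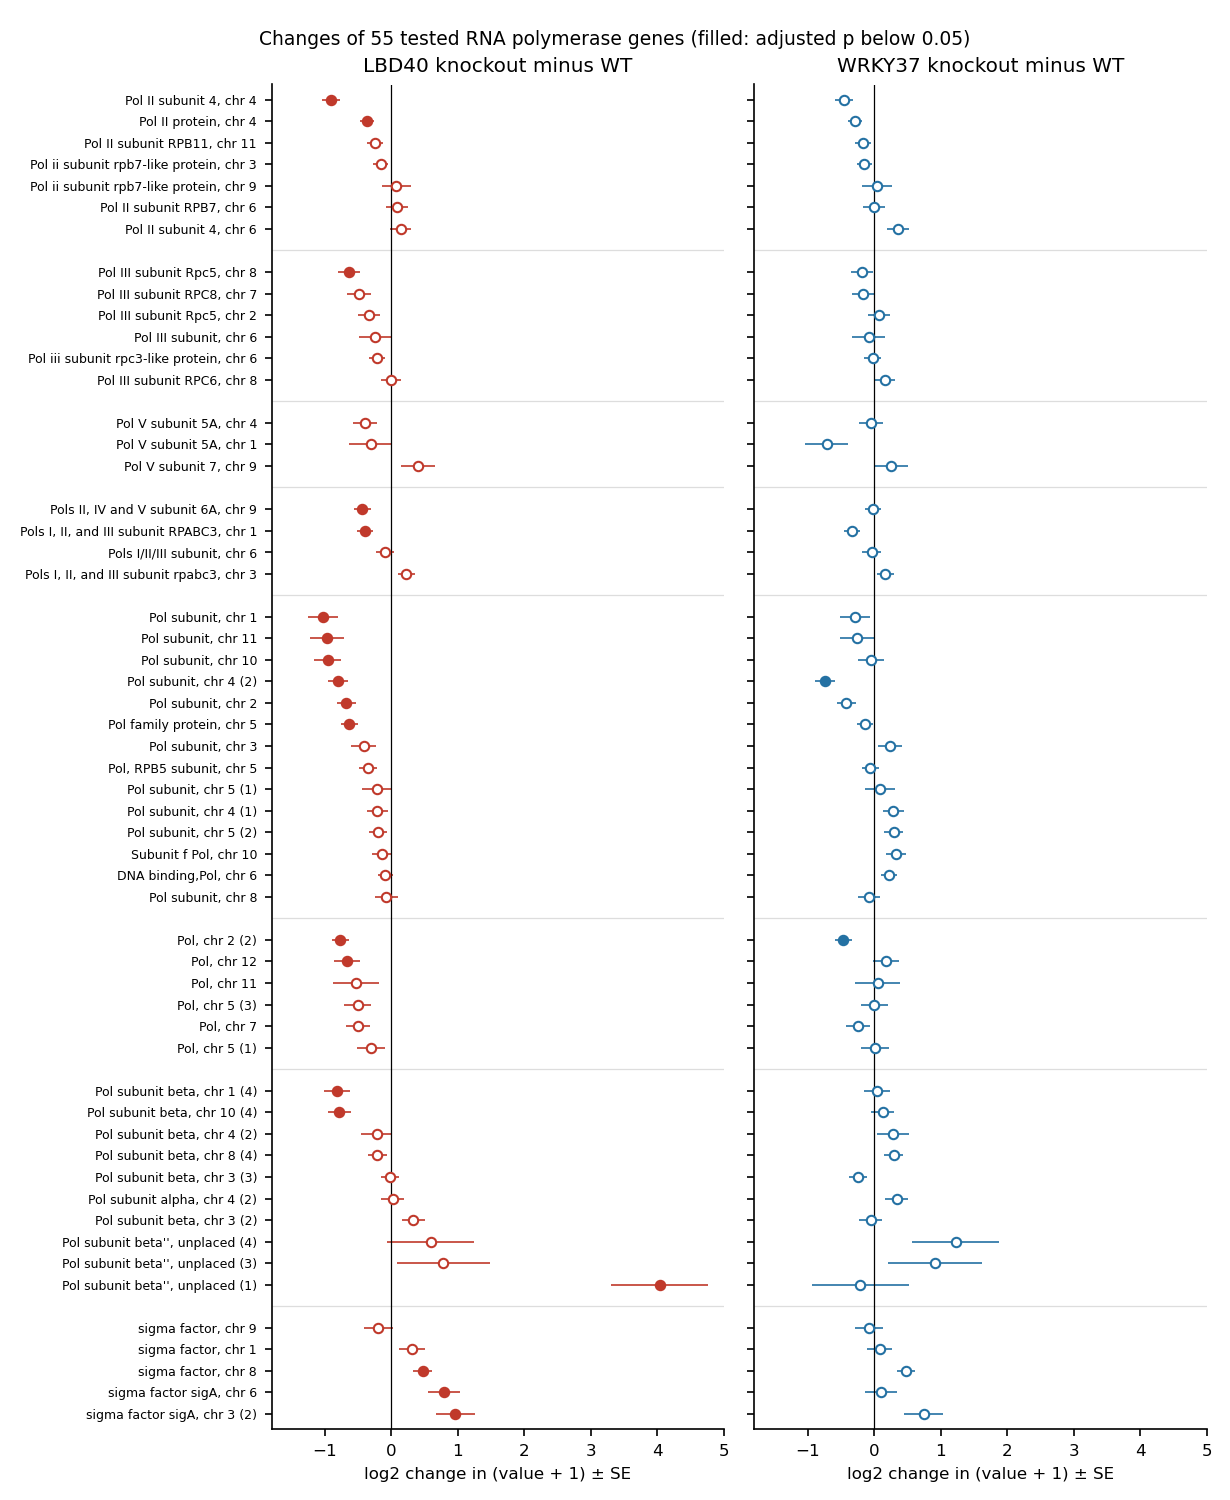
Log2 change in (value + 1) with its standard error for each of the 55 tested members, grouped by role, in the LBD40 knockout (left) and the WRKY37 knockout (right) against the same WT libraries; filled points have an adjusted p below 0.05. On the left 15 filled points lie below 0 and 4 above, and on the right 2 lie below 0.

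Among the subunits shared between nuclear enzymes, subunit 6A on chromosome 9 was lower in all LBD40 libraries. Its values were 299, 301 and 288 in WT and 208, 200 and 250 in the LBD40 knockout, and the groups did not overlap. The log2 change was -0.44 (SE 0.12, adjusted p = 0.0204). RPABC3, a subunit found in polymerases I, II and III, is described for 2 genes. The copy on chromosome 1 went from 78.6, 86.4 and 75.8 in WT to 55.4, 61.5 and 64.7 in the LBD40 knockout, a log2 change of -0.40 (SE 0.12, adjusted p = 0.028), again without overlap. The copy on chromosome 3 stood at 63.4, 73.4 and 67.8 in WT and 75.4, 76.9 and 87.4 in the LBD40 knockout, all above WT, and was not called, with a log2 change of 0.22 (adjusted p = 0.178). How reads of like copies were divided between them is not known. The subunit of polymerases I, II and III on chromosome 6 overlapped with WT and was not called (log2 change -0.10, adjusted p = 0.603).

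Of 7 tested genes described for RNA polymerase II, 2 fell (28.6%, against 19.2% of all genes tested) and 5 were not called. None rose (against 18.0%). Subunit 4 forms with subunit 7 the stalk of the enzyme, which in yeast touches the emerging RNA. It is described for a gene on chromosome 4 and a gene on chromosome 6. The chromosome 4 gene had WT values of 57.1, 58.96 and 59.7 and LBD40 values of 30.4, 28.8 and 33.4, so each LBD40 library was well below each WT library. It was 1.9-fold lower by the means, with a log2 change of -0.90 (SE 0.13, adjusted p = 0.00115). Its chromosome 6 counterpart stood at 47.4, 50.9 and 44.2 in WT and 49.3, 46.5 and 62.2 in the LBD40 knockout, with overlap and a log2 change of 0.14 (adjusted p = 0.534). The gene described only as a polymerase II protein on chromosome 4 fell from 19.7 ± 0.743 to 15.1 ± 0.418, a log2 change of -0.36 (SE 0.11, adjusted p = 0.0232). The stalk partners RPB7 on chromosome 6 (log2 change 0.08, adjusted p = 0.719) and rpb7-like on chromosome 3 (log2 change -0.16, adjusted p = 0.289) and the core subunit RPB11 on chromosome 11 (log2 change -0.25, adjusted p = 0.127) were not called.

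RNA polymerase III had 6 tested genes, all at or below WT in their LBD40 mean. None rose (against 18.0% of all genes tested) and 1 fell (16.7%, against 19.2%). This was Rpc5 on chromosome 8, whose yeast counterpart belongs to the part of the enzyme used in starting and ending transcripts. Its values were 11.97, 12.5 and 9.35 in WT and 5.78, 7.92 and 6.9 in the LBD40 knockout, without overlap, and the log2 change was -0.64 (SE 0.17, adjusted p = 0.0142). A further Rpc5 gene on chromosome 2 (log2 change -0.33, adjusted p = 0.136) and RPC8 on chromosome 7, a stalk subunit (log2 change -0.49, adjusted p = 0.0517), lay below WT in all LBD40 libraries but were not called. RPC6 on chromosome 8 had a mean of 41.7 ± 1.3 in WT and 41.7 ± 2.82 in the LBD40 knockout.

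The 3 tested genes of RNA polymerase V were not called by limma (against 18.0% of all genes called higher and 19.2% lower). None of the 3 had an unadjusted p below 0.05 in that test. Subunit 5A, which is particular to this plant enzyme, was lower on average for the copy on chromosome 4 (14.97 ± 1.37 in WT, 11.2 ± 2.45 in the LBD40 knockout) and for that on chromosome 1 (3.76 ± 0.136 and 2.87 ± 0.561). Subunit 7 on chromosome 9 was near the floor of the test, at 0.727 ± 0.0709 and 1.31 ± 0.58.

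The largest class of falling genes was that of subunits whose description names no polymerase. All 14 tested genes had a log2 change below 0, and 6 were called lower (42.9%, against 19.2% of all genes tested). None was called higher (against 18.0%). The gene on chromosome 1 had values of 18.3, 19.1 and 18.7 in WT and 7.39, 8.6 and 10.2 in the LBD40 knockout, a log2 change of -1.03 (SE 0.22, adjusted p = 0.0065). The gene on chromosome 10 went from 35.03, 37.3 and 37.8 to 15.4, 18.4 and 21.98, a log2 change of -0.96 (SE 0.20, adjusted p = 0.00526). In both, every LBD40 library was below every WT library, by 2.14-fold and 1.98-fold over the means.

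The other 4 called subunits without a named polymerase behaved alike in direction. Means were 15.4 ± 0.422 in WT and 7.51 ± 1.47 in the LBD40 knockout for the gene on chromosome 11 (log2 change -0.96, adjusted p = 0.0156), and 17.5 ± 1.71 and 9.55 ± 1.02 for that on chromosome 4, copy 2 (log2 change -0.81, adjusted p = 0.00335). The gene on chromosome 2 fell from 28.05 ± 2.34 to 17.3 ± 3.09 (log2 change -0.68, adjusted p = 0.00574). The family protein on chromosome 5 fell from 64.8 ± 3.11 to 41.4 ± 2.99 (log2 change -0.63, adjusted p = 0.00441). RPB5 on chromosome 5, a subunit that reaches into the DNA channel of the enzyme, stayed short of the threshold at 87.9 ± 1.78 in WT and 69.1 ± 6.99 in the LBD40 knockout, although the groups did not overlap (log2 change -0.35, adjusted p = 0.0593).

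Genes described by the bare words DNA-directed RNA polymerase gave a like picture. All 6 tested genes had a log2 change below 0, and 2 fell (33.3%, against 19.2% of all genes tested). None rose (against 18.0%). On chromosome 2 (copy 2) the values were 14.8, 13.2 and 15.1 in WT and 8.5, 8.23 and 7.36 in the LBD40 knockout, without overlap and with a log2 change of -0.77 (SE 0.13, adjusted p = 0.00179). On chromosome 12 they were 57.9, 49.9 and 52.4 in WT and 30.1, 32 and 37.9 in the LBD40 knockout, also without overlap, a log2 change of -0.67 (SE 0.20, adjusted p = 0.0244). Means in WT and the LBD40 knockout were 24.2 ± 1.53 and 16.8 ± 0.974 on chromosome 7 (log2 change -0.50, adjusted p = 0.0512), 39.1 ± 2.36 and 27.6 ± 6.05 on chromosome 5, copy 3 (log2 change -0.51, adjusted p = 0.0753), 36.99 ± 1.09 and 29.9 ± 3.62 on chromosome 5, copy 1 (log2 change -0.30, adjusted p = 0.273), and 16.4 ± 4.39 and 11.2 ± 3.64 on chromosome 11 (log2 change -0.53, adjusted p = 0.246), none of them called.

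**Figure D3:**
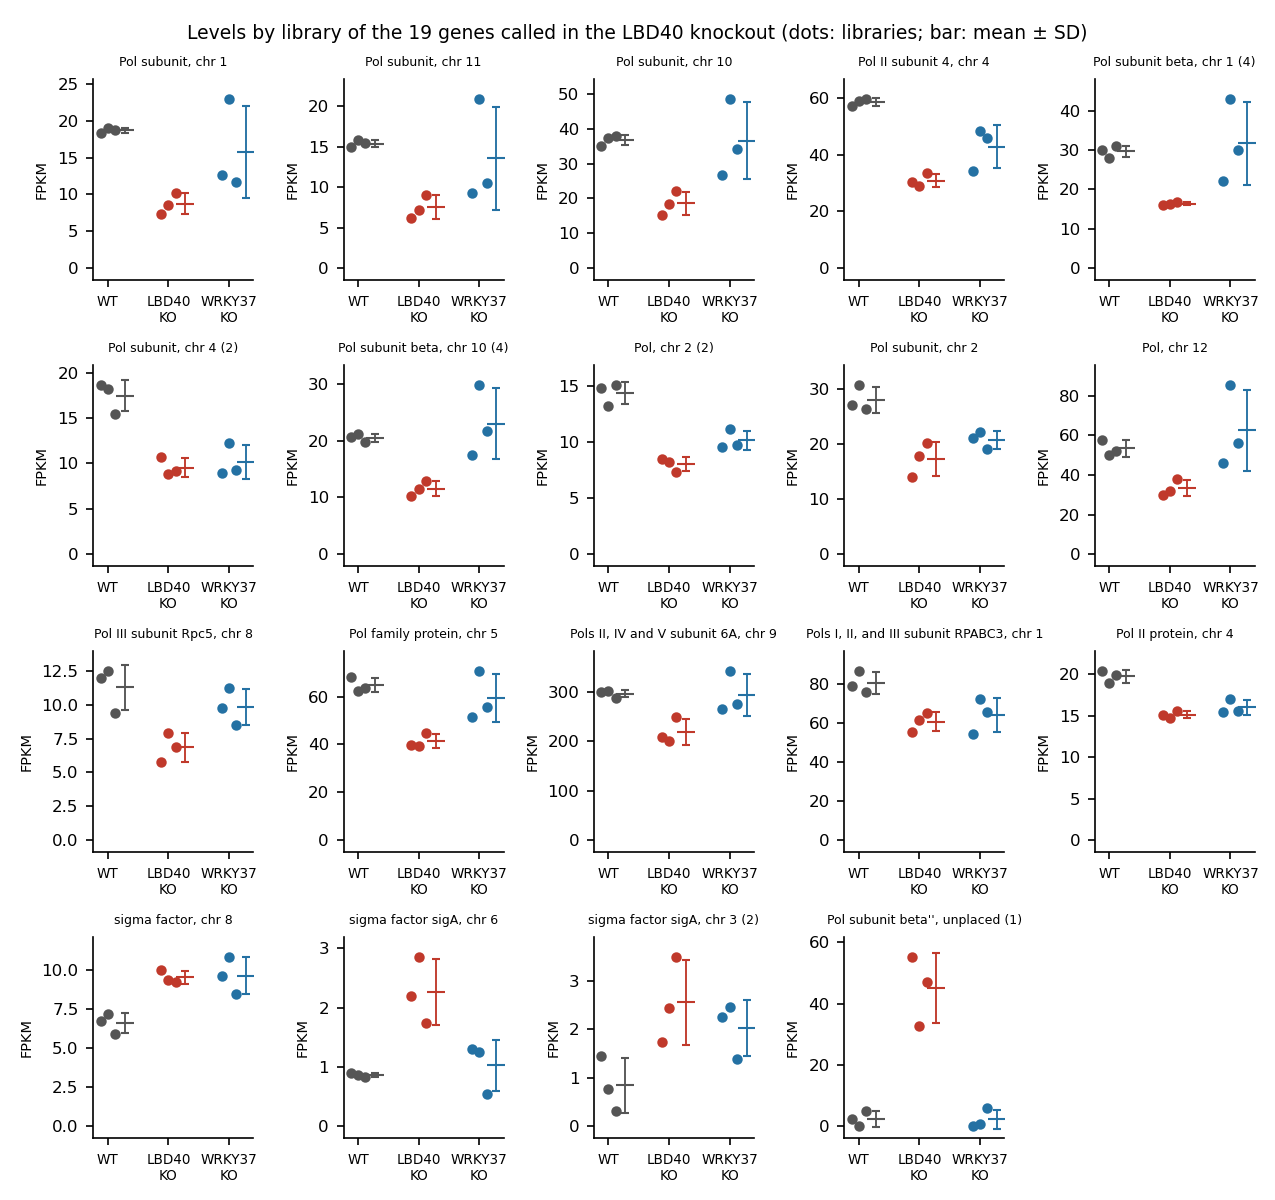
Expression value (FPKM, y axis) in each library for the 19 members called in the LBD40 knockout against WT, ordered by log2 change; dots are libraries and the bar beside them is the mean with its SD (n = 3). In every panel the LBD40 dots lie wholly below (15 panels) or wholly above (4 panels) the WT dots, and replicate 2 is the highest WRKY37 dot in most panels.

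The 10 tested genes with alpha or beta names did not move together in the LBD40 knockout. Of these, 2 fell (20%, against 19.2% of all genes tested), 1 rose (10%, against 18.0%) and 7 were not called. Their median log2 change was 0.00217. Those that fell were both named beta. The beta gene on chromosome 1 (copy 4) had values of 29.9, 28.02 and 30.9 in WT and 16.1, 16.2 and 16.9 in the LBD40 knockout, a log2 change of -0.82 (SE 0.19, adjusted p = 0.00967). The beta gene on chromosome 10 (copy 4) went from 20.7, 21.1 and 19.7 to 10.3, 11.6 and 12.8, a log2 change of -0.78 (SE 0.18, adjusted p = 0.00779). Neither overlapped with WT.

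Other expressed genes of this kind lay on numbered chromosomes and were not called. The beta gene on chromosome 3 (copy 3) had means of 48.7 ± 1.6 in WT and 48.2 ± 1.32 in the LBD40 knockout, and the beta gene on chromosome 8 (copy 4) of 33.1 ± 4.07 and 28.4 ± 4.2. Lower down were the beta gene on chromosome 3 (copy 2) at 11.04 ± 2.01 and 14.01 ± 1.5, the beta gene on chromosome 4 (copy 2) at 5.21 ± 0.997 and 4.34 ± 1.03, and the alpha gene on chromosome 4 (copy 2) at 5.36 ± 0.279 and 5.45 ± 0.365.

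A beta'' gene on unplaced sequence (copy 1) showed the greatest change of any member. Beta'' is a part of the catalytic core that most bacteria make as one protein with beta'. Its values were 2.39, 0 and 5.07 in WT and 55.1, 32.8 and 47.2 in the LBD40 knockout, and 0, 0.95 and 5.86 in the WRKY37 knockout. All LBD40 libraries were far above the other 6, and the log2 change against WT was 4.04 (SE 0.73, adjusted p = 0.00273), an 18.1-fold ratio of means that rests on a low WT level.

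The rows next to this gene had low values in all libraries. Its 10 neighbours in the table, 5 on each side, included maturase K, the alpha subunit of ATP synthase, the CP43 protein of photosystem II and polymerase genes named alpha and beta. The highest value among them in any LBD40 library was 7.19 and in any library 10.9, both in 50S ribosomal protein L2, and 4 of the 10 exceeded 1 in any library. Among the other beta'' genes on unplaced sequence, copy 3 had values of 1.52, 0 and 0 in WT, 3, 2.2 and 0 in the LBD40 knockout and 1.16, 0.15 and 5.82 in the WRKY37 knockout, and copy 4 had 2.21, 0.05 and 0.06 in WT, 2.02, 2.6 and 0.13 in the LBD40 knockout and 2.42, 0.66 and 7.05 in the WRKY37 knockout. Both were highest in WRKY37 replicate 3, were close to 0 in WT replicates 2 and 3 and LBD40 replicate 3, and were not called. The 2 alpha genes on unplaced sequence had the same 9 values as other plastid-type genes there: copy 1 matched a 50S ribosomal protein L14 and an apoprotein A2 of photosystem I, and copy 2 matched a 30S ribosomal protein S2.

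**Figure D4:**
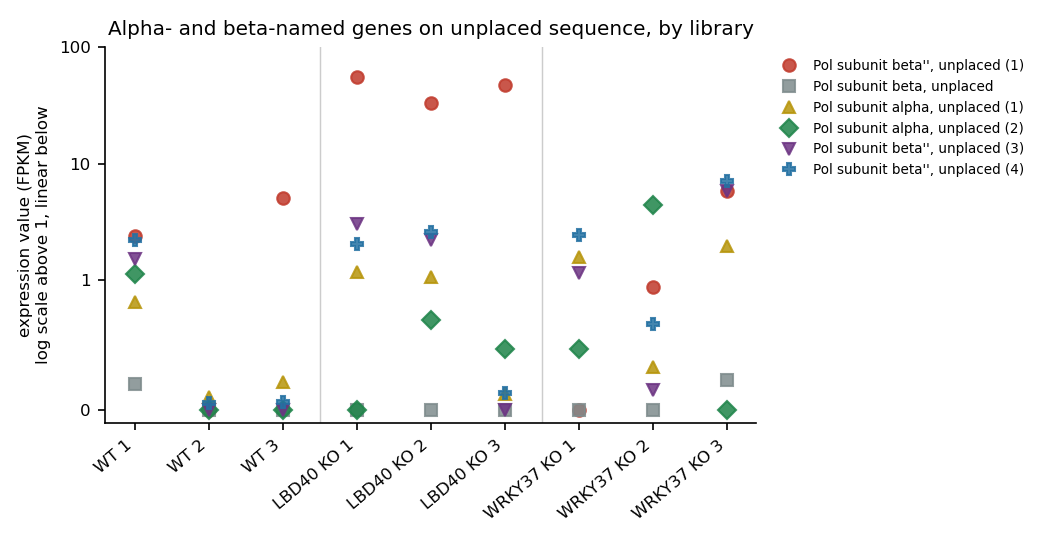
Expression value (FPKM, y axis, logarithmic above 1 and linear below) in each of the 9 libraries (x axis) for the 6 alpha- or beta-named genes on unplaced sequence that were above 0 in any library. The beta'' gene copy 1 lies at 32.8 to 55.1 in the LBD40 libraries and at 0 to 5.86 in the other 6, whereas beta'' copies 3 and 4 are highest in WRKY37 replicate 3.

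Summed over the 8 genes on unplaced sequence, alpha and beta names gave 4.59 ± 4.12 in WT, 49.5 ± 11.1 in the LBD40 knockout and 11.0 ± 8.59 in the WRKY37 knockout. Over the 67 on numbered chromosomes the sums were 155 ± 4.34, 129 ± 5.22 and 162 ± 20.7. All 75 together gave 159 ± 0.524, 179 ± 6.56 and 173 ± 18.1. The beta'' gene copy 1 carried the unplaced sum and set the direction of the sum over all 75. Without it the other 7 unplaced genes gave 2.10 ± 3.28 in WT, 4.49 ± 3.27 in the LBD40 knockout and 8.75 ± 5.47 in the WRKY37 knockout, with overlap between LBD40 and WT (two-sided exact permutation test, p = 0.2). The other 74 genes together gave 157 ± 3.04, 134 ± 4.77 and 171 ± 18.3, so that this sum was lower in the LBD40 knockout than in WT (two-sided exact permutation test, p = 0.1). For the LBD40 knockout the sums over the 8 unplaced genes and over all 75 lay above WT without overlap. The sum over the 67 on numbered chromosomes lay below WT without overlap. Each had the smallest p of 0.1 that a two-sided exact permutation test of 3 against 3 allows. For the WRKY37 knockout the p was 0.4 for the unplaced genes, 1 for the numbered chromosomes and 0.4 for all 75.

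The sigma factors called in the LBD40 knockout were higher than in WT. Of 7 genes 5 were tested, and 3 rose in the LBD40 knockout (60%, against 18.0% of all genes tested). None was called lower (against 19.2%), and by limma none had an unadjusted p below 0.05 in the lower direction. The sigma factor on chromosome 8 had values of 6.74, 7.22 and 5.93 in WT and 10, 9.41 and 9.23 in the LBD40 knockout, without overlap, and a log2 change of 0.47 (SE 0.14, adjusted p = 0.0233). The 2 called genes named sigA, after the main sigma factor of bacteria, were near the floor of the test. On chromosome 6 the values were 0.9, 0.86 and 0.83 in WT and 2.19, 2.85 and 1.75 in the LBD40 knockout (log2 change 0.79, SE 0.24, adjusted p = 0.0253). It reached the minimum mean only through the LBD40 libraries in which it was higher, so its call adds no support, and 2 rises remain among the sigma factors without it.

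On chromosome 3 (copy 2) sigA had values of 1.44, 0.78 and 0.31 in WT and 1.74, 2.43 and 3.48 in the LBD40 knockout, a log2 change of 0.96 (SE 0.29, adjusted p = 0.0268). Its groups did not overlap, but the highest WT and lowest LBD40 values were close. The most abundant sigma factor, on chromosome 1, had means of 11.9 ± 2.05 in WT and 14.9 ± 0.816 in the LBD40 knockout (log2 change 0.31, adjusted p = 0.22), and that on chromosome 9 of 5.12 ± 0.645 and 4.33 ± 0.226 (log2 change -0.20, adjusted p = 0.497), neither called. A further sigA gene on chromosome 3 (copy 1) and sigD, a chloroplast sigma factor, on chromosome 1 had means under 1 in all groups. Each of the 3 calls was lost when single libraries were left out, with an adjusted p of up to 0.09 for sigA on chromosome 3 (without WT replicate 2 or 3, or LBD40 replicate 2 or 3), 0.0897 for sigA on chromosome 6 (without any WT library, or LBD40 replicate 1 or 2) and 0.0853 for the gene on chromosome 8 (without WT replicate 1 or 3, or LBD40 replicate 1 or 2). The sum over the 7 sigma factors was 25.8 ± 0.845 in WT, 34.2 ± 1.33 in the LBD40 knockout and 31.4 ± 7.15 in the WRKY37 knockout (two-sided exact permutation test, p = 0.1 and 0.4 against WT).

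Genes found by a name search for nucleus-encoded partners of the plastid enzyme were called higher about as often as genes in general. The search took every ligase named UDP-N-acetylmuramoyl, among them a D-alanyl-D-alanine ligase on chromosome 4 and a D-glutamate ligase on chromosome 5. The list is therefore not limited to such partners. Of 17 genes found by name 11 were tested, 2 rose in the LBD40 knockout (18.2%, against 18.0% of all genes tested) and none fell (against 19.2%), with 4 higher and 1 lower at an unadjusted p below 0.05 in limma, and their median log2 change was 0.32. Fructokinase-like protein 1 on chromosome 9, in Arabidopsis a component bound to the plastid polymerase, went from 13.9 ± 1.90 in WT to 25.4 ± 1.06 in the LBD40 knockout, a log2 change of 0.83 (SE 0.16, adjusted p = 0.00382). Plastid transcriptionally active 12 on chromosome 2 went from 10.1 ± 0.417 to 15.2 ± 0.463, a log2 change of 0.54 (SE 0.14, adjusted p = 0.0152). Fructokinase-like protein 2 on chromosome 5 stood at 28.8 ± 2.11 and 27.6 ± 1.92 and was not called.

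Other plastid and green-tissue transcripts that were called in the LBD40 knockout were mostly higher. Of 47 tested genes found by a search for descriptions typical of the plastid genome, 12 rose in the LBD40 knockout (25.5%, against 18.0% of all genes). In the same comparison 2 fell (4.26%, against 19.2%). The search took every numbered chloroplast ribosomal protein, so the list also holds nuclear genes and is not limited to the plastid genome. The called genes with the smallest adjusted p were nucleus-located ones for chloroplast ribosomal proteins. An example is 50S ribosomal protein L29 on chromosome 3 (50.9 ± 6.77 in WT, 89.1 ± 1.33 in the LBD40 knockout). All 419 such genes together summed to 584 to 819 in WT and, without SlLBD40, to 1111 to 1421. Without SlWRKY37 their sum was 699.9 to 963. The 110 of them on unplaced sequence had small sums that overlapped between all groups. These ran from 15.95 to 70.25 in WT, from 19.1 to 130.6 without SlLBD40 and from 31.8 to 208.7 without SlWRKY37. The higher sum over all 419 without SlLBD40 thus lay mostly in genes on numbered chromosomes. Green-tissue markers (142 genes, 38 of them at 0) summed to 337 to 734 in WT, 678 to 841 in the LBD40 knockout and, without SlWRKY37, 179 to 359, and 14 of 49 tested rose in the LBD40 knockout (28.6%, against 18.0% of all genes) and none fell (against 19.2%), and in limma none was lower at an unadjusted p below 0.05. Their part in the changes of the sigma factors, partners and beta'' gene was not tested.

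Genes of the nuclear machinery around the polymerases, where called, were mostly lower in the LBD40 knockout. Of 39 tested general transcription factors of RNA polymerase II, which place the enzyme at promoters, 15 fell (38.5%, against 19.2% of all genes tested) and 2 rose (5.13%, against 18.0%). TFIID subunit 1 on chromosome 7 went from 19.9 ± 0.906 in WT to 9.72 ± 0.806, a log2 change of -0.96 (adjusted p = 0.00126). Of 44 tested genes of the Mediator complex, which links transcription factors to RNA polymerase II, 22 fell (50%, against 19.2% of all genes) and 2 rose (4.55%, against 18.0%). Mediator subunit 12-like on chromosome 9 went from 46.8 ± 1.62 to 22.8 ± 2.68, a log2 change of -1.01 (adjusted p = 0.000645).

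Against this direction, a gene described only as a Mediator subunit on chromosome 2 (copy 1) rose from 22.0 ± 4.13 to 72.3 ± 4.09, a log2 change of 1.69 (adjusted p = 0.000527). Elongation factors and enzymes of the C-terminal domain of RNA polymerase II showed 13 lower (44.8%, against 19.2% of all genes) and 2 higher (6.90%, against 18.0%) of 29. Spt6 on chromosome 10, a histone chaperone that travels with RNA polymerase II, went from 67.8 ± 3.40 to 27.8 ± 5.42, a log2 change of -1.28 (adjusted p = 0.000924). SPT5 on chromosome 4, which keeps the enzyme moving along the gene, went from 115 ± 3.19 to 58.8 ± 4.10. Of 9 factors of RNA polymerases I and III, 5 fell (55.6%, against 19.2% of all genes) and none rose (against 18.0%), and in limma none was higher at an unadjusted p below 0.05. The medians of these 4 lists lay between -0.44 and -0.34 on the log2 scale, against -0.02 over all genes and -0.22 over the polymerase members.

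**Figure D5:**
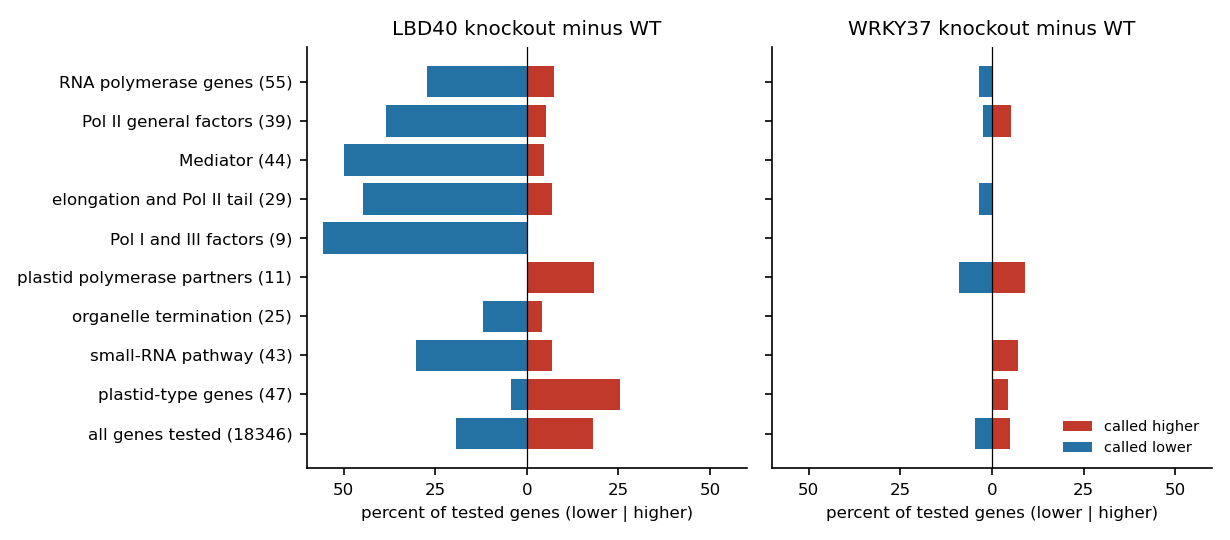
Percent of tested genes called higher (right of 0) and lower (left of 0) in each list of transcription genes. The LBD40 knockout and the WRKY37 knockout are each set against the same WT libraries. Bars for the polymerase genes and for all genes tested are shown with the lists. In the LBD40 knockout the Mediator list has 50% lower (22 of 44) and 4.55% higher (2 of 44). The list from the name search for plastid polymerase partners has 18.2% higher (2 of 11) and none lower.

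The second comparison asked the same of seeds without SlWRKY37, with the same WT libraries. Only 2 of the 55 members were called (3.64%, against 9.38% of all genes tested), both lower (4.56% of all genes were called lower), and none was called higher (against 4.82%); at an unadjusted p below 0.05 limma gave 2 members above and 6 below WT. All WRKY37 values lay above WT in 4 members (7.27%, against 14.2% of all genes) and below in 7 (12.7%, against 13.1%). Over the members the median log2 change was -0.00335. The subunit gene on chromosome 4 (copy 2) had WRKY37 values of 8.94, 12.3 and 9.22, all below the WT values of 18.6, 18.2 and 15.5, and a log2 change of -0.74 (SE 0.15, adjusted p = 0.0152). The bare-named gene on chromosome 2 (copy 2) had WRKY37 values of 9.55, 11.1 and 9.75, all below WT, and a log2 change of -0.46 (SE 0.13, adjusted p = 0.0455). Beside these stood LBD40 means of 9.55 ± 1.02 and 8.03 ± 0.596, set against the same WT libraries.

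These 2 calls were fragile. The chromosome 4 gene missed the threshold without WT replicate 1 or 2 or WRKY37 replicate 1, with an adjusted p of up to 0.0715, and the chromosome 2 gene reached an adjusted p of up to 0.155 and kept its call in 1 of the 9 fits that left out a library. Without WRKY37 replicate 2 there were 5 called members, all lower. Over all genes that fit called 559 higher and 788 lower, beside 884 and 837 with all libraries. With library totals made equal, 1 member was called higher and 2 lower, and with quantile normalization or median-ratio scaling 1 was higher and 4 lower; the higher one was the sigma factor on chromosome 8.

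Members that fell in the LBD40 knockout were mostly nearer to WT in the WRKY37 knockout, with a wide spread. Subunit 4 of RNA polymerase II on chromosome 4 had WRKY37 values of 34.3, 48.5 and 45.8, all below WT, and a log2 change of -0.46 (adjusted p = 0.0614). The sigma factor on chromosome 8 had 9.61, 10.8 and 8.47, all above WT, and a log2 change of 0.48 (adjusted p = 0.0572). The beta gene on chromosome 1 (copy 4) had 22.2, 42.97 and 29.9, on both sides of the WT values (log2 change 0.05, adjusted p = 0.916). The 10 tested alpha or beta names included none called by limma (against 4.82% of all genes called higher and 4.56% lower). None of the 10 had an unadjusted p below 0.05 in that test.

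Among the plastid enzyme's partners, fructokinase-like protein 1 on chromosome 9 was at 21.7 ± 4.80 in the WRKY37 knockout, a log2 change of 0.59 (SE 0.16, adjusted p = 0.0461). Plastid transcriptionally active protein 7 on chromosome 3 fell from 19.8 ± 4.36 in WT to 11.5 ± 3.06, a log2 change of -0.75 (SE 0.20, adjusted p = 0.0430). Of 44 Mediator genes none was called in either direction (against 4.82% of all genes called higher and 4.56% lower). At an unadjusted p below 0.05 in limma, 2 were higher and 2 lower. Of 39 general factors 2 rose (5.13%, against 4.82% of all genes) and 1 fell (2.56%, against 4.56%). The fall was in initiation factor IIB on chromosome 10 (copy 3), from 38.9 ± 3.33 to 23.0 ± 1.71, a log2 change of -0.73 (adjusted p = 0.00531).

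Setting the knockouts against each other tests where they differ. Of the 55 members 14 were called (25.5%, against 27.0% of all genes), 13 lower in the LBD40 knockout (23.6%, against 14.1%) and 1 higher (1.82%, against 12.9%), with a median log2 difference of -0.29 against -0.08 over all genes. All LBD40 values lay below all WRKY37 values in 17 members (30.9%, against 23.3% of all genes) and above in 3 (5.45%, against 19.0%). The higher one was the beta'' gene copy 1 on unplaced sequence (log2 change 4.25, SE 0.73, adjusted p = 0.0036). The lower ones included the subunit gene on chromosome 10 (log2 change -0.91, SE 0.20, adjusted p = 0.01), the beta genes on chromosome 10, copy 4 (log2 change -0.91, SE 0.18, adjusted p = 0.00619) and chromosome 1, copy 4 (log2 change -0.86, SE 0.19, adjusted p = 0.011), and the bare-named gene on chromosome 12 (log2 change -0.85, SE 0.20, adjusted p = 0.013). In no comparison were 31 of the 55 members called.

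The number of members called between the knockouts depended on single libraries. For the subunit gene on chromosome 10 the WRKY37 values were 26.8, 48.6 and 34.2, and for the bare-named gene on chromosome 12 they were 46.04, 85.5 and 56.05, in each case with replicate 2 highest. Without that library 7 members were called between the knockouts, 6 of them lower. The count was 4 without LBD40 replicate 1, 5 without LBD40 replicate 2 and 9 without WT replicate 3. WT values do not enter the log2 difference between the knockouts, and leaving out a WT library changes only how the spread is estimated. Calls over all genes fell too, from 2363 higher and 2590 lower to 1878 and 1397 without WRKY37 replicate 2. They fell to 1434 and 848 without LBD40 replicate 1, 1418 and 1120 without LBD40 replicate 2, and 2174 and 2064 without WT replicate 3. Summed over all 129 members, values were 2105 ± 42.4 in WT, 1762 ± 153 in the LBD40 knockout and 2152 ± 351 in the WRKY37 knockout. The LBD40 sum did not overlap with WT (two-sided exact permutation test, p = 0.1), and the WRKY37 sum had p = 1.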

How the data were processed

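Per the labels' protocols, RNA was extracted with a Qiagen RNeasy kit and libraries were made with a SMARTER mRNA-Seq kit. The submitters' processing notes name TopHat2, HISAT2, StringTie and Cufflinks; for versions, genome build and annotation the entry is "not given in the sources used here". In all, the authors deposited 1 table of expression values, taken here as FPKM because its totals differ between libraries and its tools write that unit; its header names no unit, and TPM over a larger gene set is possible. The column of WT replicate 1 touches the name column and was read by character position. Gene IDs are shortened to 8 characters in the table, so genes are named by description and chromosome, and copy numbers count genes that share both in table order. Descriptions with no polymerase or subunit named were kept as classes of their own rather than counted as phage type, and none named the largest subunits of polymerases I to V.

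Genes with a mean of at least 1 (18346) were fitted on log2(value + 1) with limma 3.58.1 (R 4.3.3, trend, all 9 libraries, genotype only), with Benjamini-Hochberg adjustment over all of them and a threshold of 0.05. The pseudocount makes fold changes of low genes smaller. Named with values are members called in any comparison, members of the alpha, beta, sigma and bare-named classes with a mean of at least 1, the highest of each class, and paralogs of these; list examples have the smallest adjusted p. The members and lists were chosen with earlier results of these data known. Lists are text searches in descriptions and can share genes, and genes in the Mediator list were left out of the elongation list. Sums were tested by exact permutation, two-sided. The procedure was tested on simulated data. No sequences were used. Tables and plots used Python 3.11.15, numpy 2.4.6, pandas 2.3.3 and matplotlib 3.10.9.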

Additional observations from a re-analysis of the deposited data

Results flagged for a closer look

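For 14 members the change in the LBD40 knockout differed from that in the WRKY37 knockout by a test of the difference itself, which with shared WT libraries is the contrast of the knockouts (limma, adjusted over all genes). The beta'' gene on unplaced sequence (copy 1) was higher in the LBD40 knockout by 4.25 on the log2 scale. The other 13 were lower there. The log2 differences were -0.911 for the subunit gene on chromosome 10, -0.907 for the beta gene on chromosome 10 (copy 4), -0.862 for the beta gene on chromosome 1 (copy 4) and -0.847 for the bare-named gene on chromosome 12. They were -0.734 for the subunit gene on chromosome 1 and -0.655 for that on chromosome 3. Between -0.51 and -0.49 lay the beta gene on chromosome 8, copy 4 (-0.508), the subunit genes on chromosome 4, copy 1 (-0.500) and on chromosome 5, copy 2 (-0.495), and the family protein on chromosome 5 (-0.496). The smallest were -0.469 for subunit f on chromosome 10, -0.447 for subunit 4 of RNA polymerase II on chromosome 4 and -0.417 for subunit 6A on chromosome 9. Of the 14, 4 were called under every alternative: the beta'' gene, the beta genes on chromosomes 1 and 10, and the subunit gene on chromosome 10. For the gene on chromosome 3, 104 ± 30.6 in the WRKY37 knockout, and for the gene on chromosome 5 (copy 2), 42.1 ± 6.06, the LBD40 means of 64.6 ± 9.87 and 29.4 ± 1.15 were not called against WT. The same held for the beta gene on chromosome 8 (copy 4), subunit f and the chromosome 4 gene (copy 1).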

How the results depend on the processing

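Called members kept their sign under each alternative in which they were tested (pseudocount 0.1, minimum mean 5, no low-value filter, quantile normalization, equal library totals, median-ratio scaling, the replicate number as a block, a fit restricted to the 2 groups, and leaving out each library). The 2 called sigA genes had no value with the minimum mean of 5, where 47 members were tested. Of the 19 called in the LBD40 knockout 10 were called under all of these, of the 2 in the WRKY37 knockout none, and of the 14 between the knockouts 4. For the LBD40 knockout the count was 11 to 25 when a library was left out, with 11 without LBD40 replicate 1 or replicate 2 and 12 without WT replicate 1. For the WRKY37 knockout the count of 2 became 1 without the low-value filter, 5 with quantile normalization, 5 with median-ratio scaling, 0 in the fit of only the 2 groups and 0 to 5 when a library was left out (0 without WT replicate 1 or 2 or WRKY37 replicate 1; 1 without WT replicate 3 or any LBD40 library; 5 without WRKY37 replicate 2). Between the knockouts the 14 became 9 without the low-value filter, 6 in the fit of only the 2 groups and 4 to 18 when a library was left out (4 and 5 without LBD40 replicates 1 and 2, 7 without WRKY37 replicate 2, 9 without WT replicate 3). For the LBD40 knockout against WT the fit of only the 2 groups gave 4 members higher and 23 lower, beside 4 and 15 in the main fit. Quantile normalization gave 4 higher and 19 lower there, and median-ratio scaling 5 and 19. Over all genes the number of calls shifted between these settings as well. The cause of these shifts was not tested. Same-numbered libraries did not deviate together (correlations of -0.105 to 0.0633), so numbers were not treated as pairs; with the replicate block the counts were 18, 1 and 11. Without counts, depth limits cannot be stated, and values near 1, such as the sigA genes, carry an unknown counting error.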

Other observations

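Genes found by a name search for small-RNA-directed DNA methylation, the process that RNA polymerases IV and V serve, were, where called in the LBD40 knockout, mostly lower. The search took every argonaute, dicer and RNA-dependent RNA polymerase, and also a histone methyltransferase gene named ASHH1. The list is therefore not limited to genes of that process. Of 43 tested genes, 13 fell (30.2%, against 19.2% of all genes tested) and 3 rose (6.98%, against 18.0%) there, with a median log2 change of -0.31, and 3 rose (6.98%, against 4.82%) and none fell (against 4.56%) in the WRKY37 knockout (4 higher and 5 lower at an unadjusted p below 0.05 in limma). A CLASSY 4-like gene on chromosome 1, whose Arabidopsis relatives guide RNA polymerase IV, was at 0.203 ± 0.136 in WT, 22.9 ± 3.90 in the LBD40 knockout and 0.0567 ± 0.0737 in the WRKY37 knockout. It passed the minimum mean only through the LBD40 libraries, so no test is given. A gene for DEFECTIVE IN MERISTEM SILENCING 3 on chromosome 3 (copy 1), in Arabidopsis a partner of RNA polymerase V, was at 0.667 ± 0.224 in WT and 3.46 ± 0.794 in the WRKY37 knockout. It passed only through the WRKY37 libraries, and no test is given for it either. Each is 1 of the 3 rises counted in its knockout. Among the 13 falls, Argonaute 5 on chromosome 6 passed only through the WT libraries, and its call adds no support. Its mean was 1.85 in WT and 0.778 over the other libraries. Dicer-like 2b on chromosome 11, of the enzymes that cut double-stranded RNA, rose from 7.28 ± 1.71 in WT to 18.5 ± 3.46 in the LBD40 knockout and 31.9 ± 11.96 in the WRKY37 knockout. Argonaute4b on chromosome 6, of the proteins that carry small RNAs to their targets, fell from 75.9 ± 7.37 to 36.3 ± 1.19 in the LBD40 knockout (log2 change -1.04, SE 0.16, adjusted p = 0.00143).

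Among 25 tested organelle transcription termination factors, 1 rose (4%) and 3 fell (12%) in the LBD40 knockout, both below the shares of all genes tested (18.0% and 19.2%), and none was called in the WRKY37 knockout (against 4.82% higher and 4.56% lower; 2 higher and 1 lower at an unadjusted p below 0.05 in limma). A mitochondrial termination factor gene on chromosome 11 (copy 3) rose from 4.36 ± 0.852 to 8.75 ± 0.994 in the LBD40 knockout, and one on chromosome 3 (copy 2) fell from 11.9 ± 1.27 to 6.42 ± 0.199.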
